A study of Mus musculus with 2 samples.

Results

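The heat shock chaperone genes described here were the 9 genes Hspa8, Hsp90ab1, Hsp90aa1, Hsph1, Dnajb1, Hspa1a, Hspa1b, Hspb1 and Hspa5, chosen by name out of the 39098 gene symbols found in either of 2 single-cell RNA sequencing (scRNA-seq) libraries of the mouse trigeminal ganglion (TG). All 9 had counts in both libraries, and together they held 0.825% of the counts of the control library and 0.795% of those of the other. The TG holds the cell bodies of the sensory neurons of the face and the glia, fibroblasts, vessels and immune cells around them. Both libraries came from the TG of male C57BL/6 mice aged 5 to 8 weeks, and no transgene or deletion is named for either group. The CFA library was made a week after 20 µL of complete Freund's adjuvant, an oil emulsion that causes lasting inflammation, was put into the whisker pad on the same side. The control library is labelled untreated, whereas the study's methods describe a saline injection for it. Ganglia were digested with papain at 37 °C for between 30 and 90 min before cells were captured, and how many mice each library pooled is not given in the sources used here. There was 1 library per condition, so differences between libraries were not tested, the intervals below cover counting error only, and animal, digestion and library cannot be told apart from the treatment.

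Heat shock proteins are chaperones, which bind unfolded stretches of other proteins and help them to fold, to move across membranes or to be degraded. Some are made constantly in every cell. Others are switched on within minutes when heat or another stress frees the transcription factor HSF1, which binds heat shock elements in their promoters, and tissue dissociation at body temperature is itself known to switch on such genes. Of the 9 genes, Hspa8 and Hsp90ab1 are the constitutive cytosolic Hsp70 and Hsp90. Hspa1a and Hspa1b encode the inducible Hsp70, Hsp90aa1 the inducible Hsp90, Hsph1 (Hsp110) an exchange factor that reloads Hsp70 with ATP, Dnajb1 (Hsp40) the co-chaperone that delivers clients to Hsp70, and Hspb1 (Hsp27) a small heat shock protein that holds clients without ATP. Hspa5 (BiP) is the Hsp70 of the endoplasmic reticulum (ER) and follows the unfolded protein response rather than HSF1.

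The upstream sequences of 3 inducible genes are shown first, because Hspa1a and Hspa1b are near-identical neighbours whose counts are set apart below and Hspb1 varied widely among neuron classes. RefSeq promoter entries on GRCm38.p6 matched 6 of the 9 genes, and none matched Hspa8, Hsp90aa1 or Hsp90ab1. Each line gives the 150 bases before the RefSeq start, 5′ to 3′ on the strand of the gene, and capitals mark heat shock element cores of the form GAANNTTC.
Hspa1a: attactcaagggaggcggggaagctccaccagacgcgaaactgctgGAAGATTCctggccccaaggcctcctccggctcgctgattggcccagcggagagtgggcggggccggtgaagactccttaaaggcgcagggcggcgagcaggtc
Hspa1b: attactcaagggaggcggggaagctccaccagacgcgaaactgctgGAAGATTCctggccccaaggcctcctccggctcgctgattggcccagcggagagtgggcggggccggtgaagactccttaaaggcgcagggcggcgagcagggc
Hspb1: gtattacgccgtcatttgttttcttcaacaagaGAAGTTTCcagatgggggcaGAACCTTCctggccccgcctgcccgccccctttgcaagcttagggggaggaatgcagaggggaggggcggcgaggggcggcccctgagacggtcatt

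The stretches lie at chr17:34972157-34972306 for Hspa1a and chr17:34959239-34959388 for Hspa1b, both on the minus strand, and at chr5:135887769-135887918 on the plus strand for Hspb1, in each case directly upstream of the gene. Hspa1a and Hspa1b differed at 1 of these 150 bases and at 3 of 250. Both strands were searched for GAANNTTC and TTCNNGAA, each its own reverse complement, and these were found in 6.69% and 7.17% of 32851 RefSeq promoters over 250 bases. Hsph1 held the outward form as TTCTCGAA at chr5:149636362-149636369 on the minus strand, between 33 and 26 bases before its RefSeq start. The ER stress element, a CCAAT box and a CCACG box at a fixed distance, was found on either strand in 0.113% of the same promoters. Hspa5 held it as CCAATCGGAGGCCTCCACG at chr2:34772025-34772043 on the plus strand, between 65 and 47 bases before its RefSeq start. For Hsph1 and Hspa5 the GENCODE gene begins further upstream than the RefSeq start, so both matches lie inside the GENCODE gene bounds given below. Dnajb1 held none of the 3 patterns in its window. These are matches of letters only, and no binding was measured.

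Counts were unique molecular identifiers (UMIs), each tagging 1 captured RNA molecule, and 6695 of 7298 control and 3661 of 4080 CFA cells passed the filters, with medians of 1448 and 1192 UMIs per cell. The libraries shared 27 cell labels. Neurons (821 and 428 cells) were far deeper than other cells, with medians of 43699 and 35110 UMIs. They were divided by raw UMIs of marker genes into 8 classes. Cells with Mrgprd formed NP1 (170 and 64 cells), and those with Mrgpra3 formed NP2 (45 and 13), both small-diameter non-peptidergic neurons. Cells with enough UMIs of Sst and Nppb summed, which encode neuropeptides, formed Sst/Nppb (13 and 12). Trpm8 marked the cold-sensing class (49 and 24), and P2ry1, Slc17a8 and Tafa4 marked C-fibre low-threshold mechanoreceptors (cLTMR, 79 and 50). Nefh marked large myelinated neurons, split by Calca, the gene of the neuropeptide CGRP, into NF without it (20 and 13) and PEP-A with it (10 and 11). The remaining cells with Calca at or above the same minimum formed PEP-C (381 and 202). Within 1.5-fold of the Nefh minimum lay 62 control and 37 CFA neurons, counted whichever class they were in. Cells of the classes gated before Nefh could not enter NF or PEP-A. Both classes are small and may depend on where that minimum is set. Non-neuronal clusters, made with the 9 genes and their related genes left out, were named from markers as myelinating Schwann cells (mSC, 2346 and 1415 cells), satellite glial cells (SGC, 1236 and 503), oligodendrocyte-lineage cells (OLC, 118 and 154), immune cells (IC, 365 and 232), fibroblasts (FB, 593 and 403), endothelial cells (EC, 294 and 163) and mural cells of vessel walls (68 and 23). A further cluster could not be named and is called the Emp1 cluster after its leading gene (732 and 209). Of the marker lists, that of non-myelinating Schwann cells ranked first in it with 5 markers detected, but 0 of them were among its 10 leading genes. In it the summed mSC markers reached 38.6% and 28.7% of their level in mSC. The summed SGC markers were higher in OLC than in SGC, at 159% and 142% of the SGC level, so that list does not separate these 2 types.

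Levels are given as CPM, the UMIs of a gene per 1e+06 UMIs of all cells of a class summed, with 95% Poisson intervals, and differences as the log2 ratio of CFA over control with exact 95% binomial intervals. A ratio of 0.5 or more in either direction was taken as past the fold, among genes with at least 50 UMIs over both libraries. CPM is a share of the UMIs of a class. Neurons held far more UMIs per cell than other types, so a lower CPM in neurons need not be a lower count per cell. UMI levels depend on each transcript's 3′ end, so levels were compared between classes and not between genes. The exception is the split of UMIs between Hspa1a and Hspa1b, where a share over 50% is of counts and not of transcripts.

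**Figure D1:**
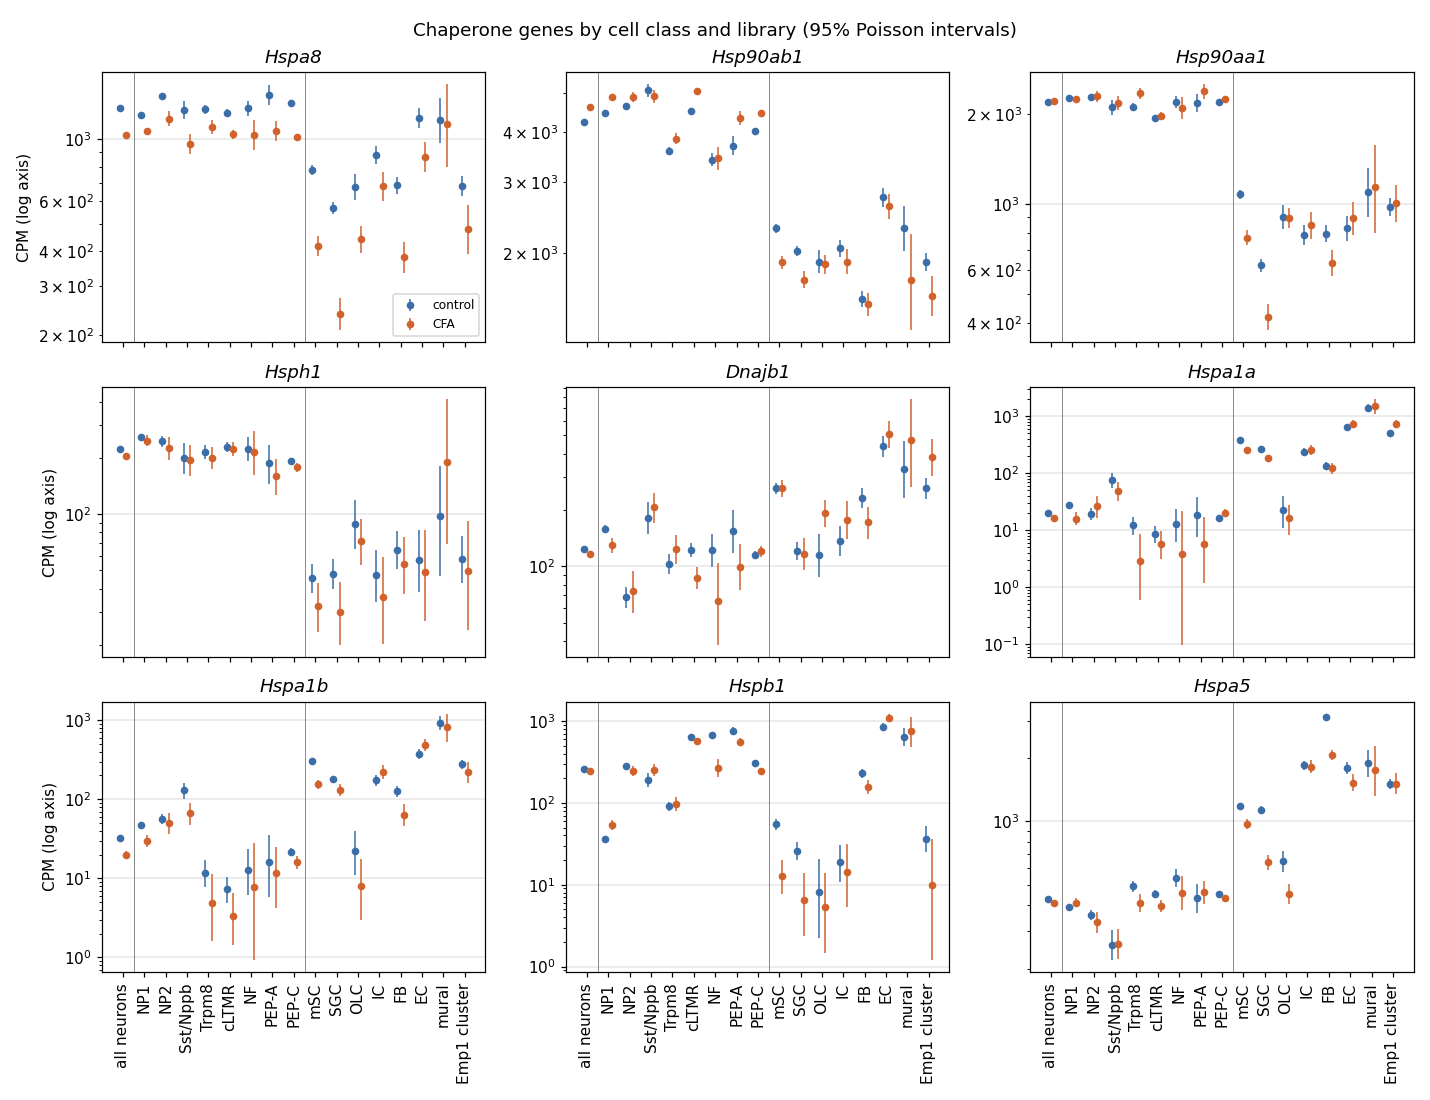
CPM of each chaperone gene (log axis) in all neurons, 8 neuron classes and 8 non-neuronal types, in the control (blue) and CFA (orange) libraries, with 95% Poisson intervals. Hsp90aa1, Hsp90ab1 and Hsph1 lie higher in neurons than in every other type in both libraries, while Hspa1a and Hspa1b lie lower in all neurons than in every type but OLC.

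Hspa8 (chr9:40800984-40810087, plus strand, GRCm38), which folds new proteins and strips clathrin from synaptic vesicles, was at 1299 CPM in control neurons and at 1041 CPM in CFA neurons. The 8 neuron classes lay close together. In the control library the highest class, PEP-A, was at 1443 CPM and the lowest, NP1, at 1228 CPM, a 1.18-fold spread. In the CFA library the spread between NP2 at 1187 CPM and Sst/Nppb at 962 CPM was 1.23-fold. Between neighbours in the order of classes the intervals overlapped, except between NP2 and PEP-C in the control library. The ratio was under 0 in 8 of 8 neuron classes, with the interval wholly under 0 in all 8, from -0.20 in NP1 to -0.43 in PEP-A, and none passed the fold. With cells thinned to one depth it stayed under 0 in all 8 but came to -0.02 for Hspa8 in NP1, -0.04 for Hspa8 in cLTMR and -0.12 for Hspa8 in Sst/Nppb. Over all neurons it was -0.32 (-0.34 to -0.29).

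Outside neurons, Hspa8 was at 1192 and 868 CPM in EC and at 1175 and 1139 CPM in mural cells, close to neurons. It was lowest in SGC, at 568 CPM in control and 238 CPM in CFA cells. The SGC ratio of -1.25 (-1.46 to -1.05) was a 2.39-fold lower level. In mSC the gene was at 777 and 415 CPM (-0.91), in FB, of which an Mgp-led cluster held 6 control and 37 CFA cells, at 686 and 380 CPM (-0.85) and in OLC at 679 and 439 CPM (-0.63). The ratio was under 0 in 8 of 8 types, with the interval wholly under 0 in 7, and mural cells at -0.05 (-0.63 to 0.50) were the exception. A cluster of SGC led by Cxcl10, an interferon-induced chemokine, held 226 control cells and 3 CFA cells. In the Fabp7-led SGC cluster alone Hspa8 was at 549 and 238 CPM, so the lower CFA level stood there too. In the Dcn-led FB cluster alone it was at 693 and 388 CPM.

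Hsp90ab1 (chr17:45567775-45573271, minus strand), the constitutive Hsp90 that keeps kinases and receptors in an active fold, was at 4231 CPM in control and 4602 CPM in CFA neurons. Its neuronal ratio of 0.12 (0.11 to 0.13) was above 0, where that of Hspa8 was below. The interval lay wholly over 0 in 6 of 8 neuron classes, with Sst/Nppb at -0.05 and NF at 0.01 as the others. In PEP-A it was at 3694 and 4327 CPM (0.23, 0.13 to 0.33), with 1 of 10 control cells holding 30.0% of the UMIs. Among classes, NF was lowest in both libraries, at 3407 and 3437 CPM. Sst/Nppb was highest in the control library at 5067 CPM, and cLTMR in the CFA library at 5049 CPM. In non-neuronal types the ratio was under 0 in 8 of 8, with the interval wholly under 0 in mSC (2298 and 1891 CPM), SGC (2021 and 1715 CPM) and the Emp1 cluster (1897 and 1562 CPM). The highest type, EC, was at 2745 and 2607 CPM, so neurons were 1.54-fold and 1.77-fold higher.

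Hsp90aa1 (chr12:110690605-110702728, minus strand), the stress-inducible Hsp90, had the smallest spread among neuron classes. It was at 2180 CPM in control and 2198 CPM in CFA neurons, a ratio of 0.01 (-0.01 to 0.03). Across classes the control library ran from 1932 CPM in cLTMR to 2267 CPM in NP2, 1.17-fold, and the CFA library from 1969 CPM in cLTMR to 2374 CPM in PEP-A, 1.21-fold. Trpm8 neurons had the highest ratio at 0.15 (0.08 to 0.22), from 2112 to 2339 CPM. Mural cells were the highest non-neuronal type at 1097 and 1139 CPM, 1.99-fold and 1.93-fold under neurons. SGC were lowest at 624 and 419 CPM, with a ratio of -0.58 (-0.74 to -0.42) that passed the fold. In mSC the gene was at 1076 and 771 CPM (-0.48). That ratio ran from -0.59 to -0.02 under the alternative processing settings listed at the end.

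Hsph1 (chr5:149614287-149636376, minus strand) was also highest in neurons, at 224 CPM in control and 205 CPM in CFA cells. NP1 was the highest class at 258 and 247 CPM and PEP-A the lowest at 187 and 159 CPM. The ratio was under 0 in 8 of 8 neuron classes but between -0.23 and -0.04, with 1 interval, that of PEP-C, wholly under 0. In mSC Hsph1 was at 45.3 and 32.2 CPM, in SGC at 48.1 and 30.1 CPM and in OLC at 89.1 and 71.7 CPM. The SGC ratio was -0.68 (-1.33 to -0.08) on 124 and 28 UMIs, and in the Fabp7-led SGC cluster alone Hsph1 was at 41.4 and 30.3 CPM. Mural cells rested on 10 and 6 UMIs, and their 98.0 and 189.8 CPM could not be told from the neuronal level in the CFA library.

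Dnajb1 (chr8:83608193-83612653, plus strand) was, unlike the Hsp90 genes and Hsph1, highest outside neurons. EC held 438 CPM in control and 509.5 CPM in CFA cells, 3.52-fold and 4.38-fold above neurons at 124 and 116 CPM. Within neurons Sst/Nppb was highest at 182 and 206 CPM, and NP2 was at 68.5 and 73.5 CPM. Dnajb1 was lower in the CFA library in NP1, from 158 to 129 CPM (-0.29, -0.44 to -0.15), and in cLTMR, from 122 to 87.1 CPM (-0.49, -0.73 to -0.25). Under the alternative settings the cLTMR ratio ran from -0.51 to 0.50, so its direction depends on the setting. Dnajb1 passed the fold in NF, from 122 to 65.3 CPM (-0.91, -1.75 to -0.15) on 95 and 17 UMIs, and in PEP-A, from 155 to 99.8 CPM (-0.63, -1.20 to -0.07), where 1 of 10 control cells held 46.6% of the UMIs. With the gate minima doubled the ratio of Dnajb1 in PEP-A was 1.23, so its direction rests on which cells are gated. NF neurons differed in depth between libraries, with medians of 43598 and 14351 UMIs. Under the alternative settings, thinning to one depth among them, the ratio of Dnajb1 in NF ran from -2.47 to -0.64. The part of depth in the NF value was not tested beyond these settings. Dnajb1 was higher in the CFA library in OLC, from 115 to 192 CPM (0.73, 0.28 to 1.20), and in the Emp1 cluster, from 261 to 384 CPM (0.56, 0.16 to 0.94). Under the alternative settings these ratios ran from 0.28 to 0.99 in OLC and from 0.10 to 0.80 in the Emp1 cluster. In OLC 8 of 154 CFA cells held 57.0% of the Dnajb1 UMIs. In mSC Dnajb1 was at 261 CPM in both libraries.

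**Figure D2:**
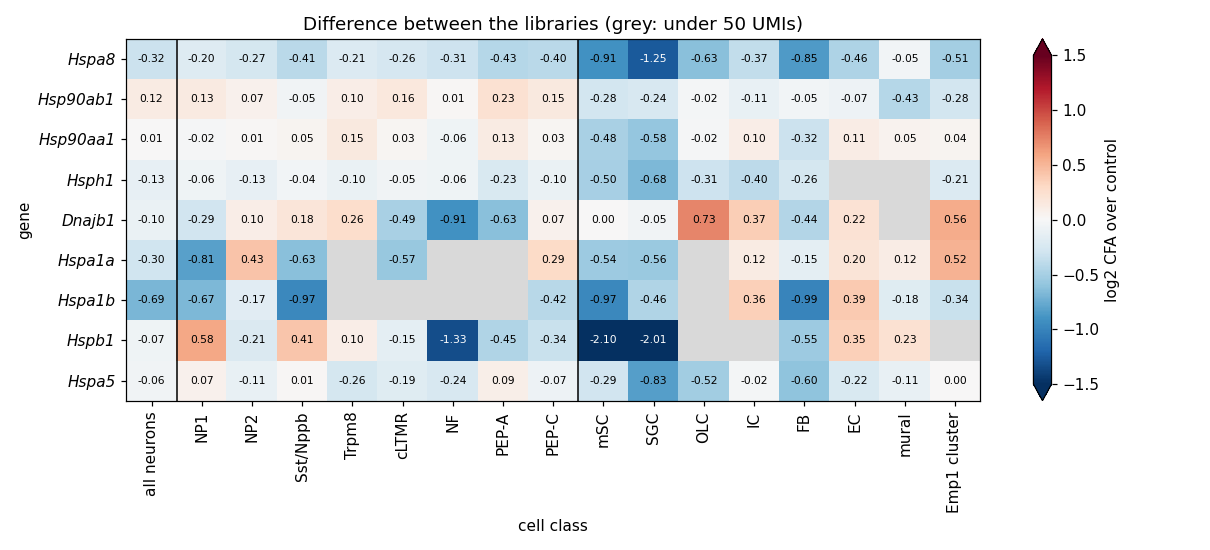
Log2 ratio of CFA over control for each gene (vertical axis) in all neurons, 8 neuron classes and 8 non-neuronal types (horizontal axis), with blue for lower and red for higher in the CFA library and grey for under 50 UMIs. The Hspa8 line is blue throughout, from -0.05 in mural cells to -1.25 in SGC, and Hspb1 in mSC and SGC, at -2.10 and -2.01, is the darkest blue.

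Counted over the set, the 9 genes all had 50 UMIs or more in neurons. Of these, 1 was lower past the fold, Hspa1b, beside 6.05% of the 14501 genes over the minimum, and 0 were higher beside 6.23%. In NP1 2 of 9 were lower (Hspa1a and Hspa1b, background 6.48%) and 1 was higher (Hspb1, background 4.32%). In Sst/Nppb 2 of 9 were lower, the same pair, beside 9.33%, and 0 higher beside 10.2%. In cLTMR 1 of 8 genes over the minimum was lower (Hspa1a, background 7.38%), at -0.57 (-1.57 to 0.35) on 37 and 14 UMIs. Lower were in NF 2 of 7 (Dnajb1 and Hspb1, background 19.2%) and in PEP-A 1 of 7 (Dnajb1, background 11.1%). In these 3 classes 0 were higher, beside 5.12%, 14.4% and 14.5%. NP2, with 9 genes over the minimum, had 0 lower and 0 higher beside 11.6% and 5.67%, Trpm8 with 7 had 0 and 0 beside 9.85% and 5.28%, and PEP-C with 9 had 0 and 0 beside 7.27% and 5.01%. Hspa8, Hsp90ab1, Hsp90aa1, Hsph1 and Hspa5 were in none of these counts.

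Outside neurons 3 types had 4 or more genes past the fold. In SGC 6 of 9 genes were lower (Hspa8, Hspa1a, Hspa5, Hsp90aa1, Hsph1 and Hspb1) beside 11.1% of genes, in mSC 4 of 9 (Hspa8, Hspa1a, Hspa1b and Hspb1) beside 11.1%, and in FB 4 of 9 (Hspa8, Hspa1b, Hspa5 and Hspb1) beside 12.7%. In SGC, mSC and FB 0 genes were higher, beside 9.88%, 11.5% and 13.2%. Under the alternative settings Hsph1 in SGC reached -0.42, Hsp90aa1 -0.44 and Hspa1a -0.28, all short of the fold. Hspa8, Hspa5 and Hspb1 in SGC stayed past it, Hspb1 on 67 and 6 UMIs. The median ratio of the 9 genes was -0.58 in SGC, -0.50 in mSC and -0.44 in FB, against 0.02 over all genes tested in each of the 3, and -0.10 in neurons. The mSC median is the ratio of Hsph1, on 130 and 45 UMIs, which ran from -0.77 to 0.49 under the alternative settings. OLC had 2 of 6 lower (Hspa8 and Hspa5, background 8.89%) and 1 higher (Dnajb1, background 14.4%). The Emp1 cluster had 1 of 8 lower (Hspa8, background 17.8%) and 2 higher (Hspa1a and Dnajb1, background 15.6%). IC, EC and mural cells had 0 lower of 8, 8 and 7, beside 20.3%, 12.8% and 22.2%, and 0 higher beside 14.8%, 14.2% and 16.6%.

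Hspa1a (chr17:34969190-34972156, minus strand) and Hspa1b (chr17:34956436-34959238, minus strand), the heat-inducible Hsp70 genes, were far lower in neurons than in cells of vessels. Mural cells held 1401 and 1518 CPM of Hspa1a and 931 and 822 CPM of Hspa1b. Neurons held 20.1 and 16.3 CPM of Hspa1a, 69.6-fold and 93.2-fold less. For Hspa1b the neuronal levels were 32.1 and 19.9 CPM, 29.0-fold and 41.3-fold less. EC followed mural cells with 650.4 and 745 CPM of Hspa1a, then the Emp1 cluster with 517 and 744 CPM. OLC was the type most like neurons, with 22.3 and 16.2 CPM of Hspa1a and 22.3 and 8.11 CPM of Hspa1b. Within IC, Hspa1a was at 474 and 357 CPM in the cluster led by the chemokine Cxcl2 and at 45.3 and 41.8 CPM in that led by Ly6c2, but 1 cell held 23.4% and 35.2% of the Hspa1a UMIs of all IC.

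To compare shares of cells across depths, each cell with at least 500 UMIs was thinned to 500, and cells with fewer were left out. A UMI of Hspa1a was then found in 8 of 821 control neurons, 0.974% (0.422 to 1.91, exact binomial), and in 3 of 428 CFA neurons, 0.701%. In mural cells the shares were 42.6% and 60.9%, in the Emp1 cluster 19.6% and 25.6%, and in OLC, the type with the lowest level, 2.08% and 1.41%. The neuronal shares lay at or under those of OLC, so they were not read as expression at this depth. The OLC shares rest on few cells, since OLC held 11 and 12 Hspa1a UMIs in all before thinning. Without thinning, 43.4% and 29.9% of neurons had a UMI, at medians of 43699 and 35110 UMIs per cell, and 9.32% and 5.84% of OLC did.

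Among neurons, Sst/Nppb was highest for both genes, with 76.3 and 49.5 CPM of Hspa1a and 130.0 and 66.5 CPM of Hspa1b. In the CFA library its intervals overlapped those of NP2 for both genes. NP2 followed for Hspa1b at 57.0 and 50.6 CPM, then NP1 at 47.6 and 29.9 CPM, whereas cLTMR held 7.24 and 3.34 CPM. The Hspa1b intervals of NP2 and NP1 overlapped in the control library. For Hspa1b the high classes were not set by a single cell. The median Sst/Nppb neuron held 142 and 65.7 CPM of Hspa1b and the median NP1 neuron 31.6 and 23.3 CPM. The Hspa1b median was 0 in Trpm8, cLTMR and NF in both libraries. Over all neurons the 5% of cells with the most UMIs held 35.8% and 44.2% of Hspa1b and 38.0% and 51.1% of Hspa1a. In cLTMR the summed mSC markers stood at 2.42% and 2.44% of their mSC level, and that percent of the mSC level of Hspa1a would be 9.11 and 6.32 CPM, as much as the 8.64 and 5.84 CPM measured. For Hspa1b it would be 7.32 and 3.78 CPM, so neither gene stood above that level in cLTMR. From the SGC markers it would be less, 1.92 and 1.23 CPM of Hspa1a and 1.28 and 0.884 CPM of Hspa1b. Whether the mSC markers measure glial RNA in cLTMR was not tested. In Sst/Nppb the reckoning from mSC markers gave 2.34 and 1.76 CPM of Hspa1a.

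Between libraries, Hspa1b was lower in CFA neurons at a ratio of -0.69 (-0.87 to -0.51). The ratio was -0.67 in NP1 and -0.97 in Sst/Nppb, from 75 to 39 UMIs, with intervals wholly under 0, and it was -0.17 (-0.68 to 0.30) in NP2. In PEP-C the Hspa1b ratio was -0.42 (-0.74 to -0.10), short of the fold, and ran from -0.70 to 0.09 under the alternative settings. The ratio of Hspa1a in Sst/Nppb was -0.63 (-1.35 to 0.08) on 44 and 29 UMIs. It was 0.12 with cells thinned to one depth, which leaves far fewer UMIs. Hspa1a was lower too in NP1, from 28.2 to 16.1 CPM (-0.81, -1.22 to -0.42), but not in PEP-C, at 16.4 and 20.0 CPM (0.29, -0.02 to 0.60). A single PEP-C neuron of the CFA library held 16.8% of its Hspa1a UMIs. Outside neurons Hspa1b was lower in mSC, from 303 to 155 CPM (-0.97, -1.19 to -0.75), and in FB, from 127 to 63.6 CPM (-0.99, -1.54 to -0.48), and higher in EC, from 374 to 492 CPM (0.39, 0.07 to 0.72). Hspa1a was lower in mSC, from 377 to 259 CPM, and in SGC, from 268 to 182 CPM, and higher in the Emp1 cluster, from 517 to 744 CPM (0.52, 0.25 to 0.80).

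**Figure D3:**
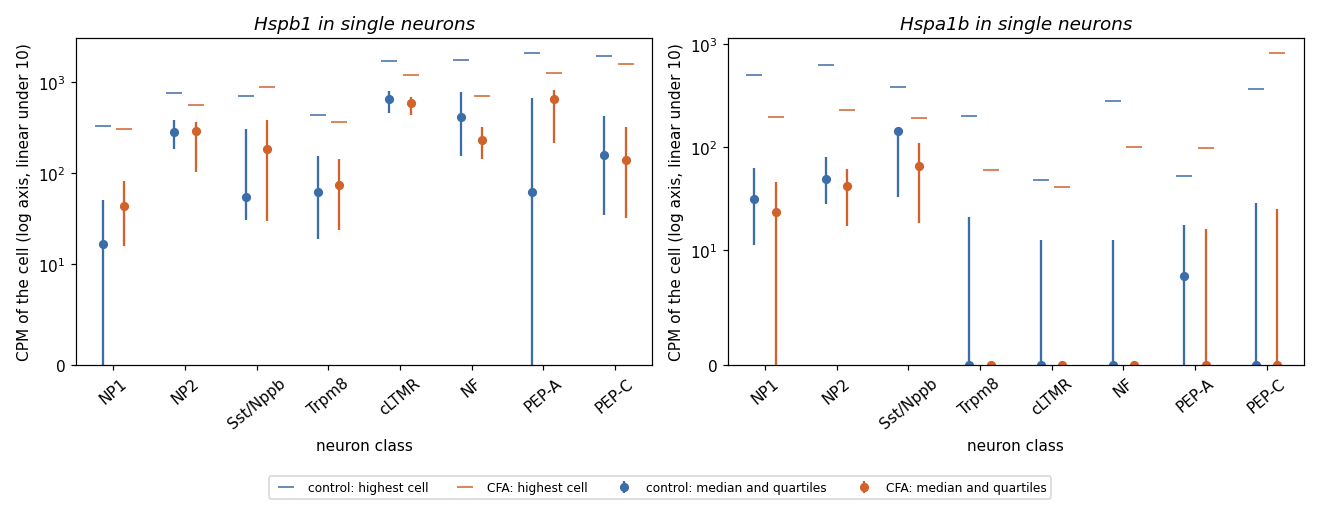
CPM of single neurons (log axis, linear under 10) for Hspb1 and Hspa1b in 8 neuron classes of the control (blue) and CFA (orange) libraries, with points for the median cell, lines for the quartiles and dashes for the highest cell. The median neuron had no Hspa1b in Trpm8, cLTMR and NF, while Hspb1 was in nearly every cLTMR cell, with medians of 659.5 and 588 CPM.

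The split of counts between the 2 Hsp70 genes varied among classes. Hspa1a made up 38.5% (36.4 to 40.7, Clopper-Pearson) of the UMIs of the pair in control neurons and 45.0% (41.0 to 49.0) in CFA neurons. It was the larger share in every non-neuronal type of the control library but OLC, where the genes were equal at 11 UMIs each, and the shares were 55.5% and 62.6% in mSC, 59.9% and 58.2% in SGC, 63.5% and 60.2% in EC and 65.0% and 77.2% in the Emp1 cluster. The neuronal share came mostly from NP1, at 37.2% (33.9 to 40.6) in the control library, NP2, at 25.6% (20.6 to 31.3), and PEP-C. In control Trpm8, cLTMR, NF and PEP-A neurons, with few UMIs of either gene, the share lay between 50% and 54.4%, with intervals that covered 50%. In PEP-C the share was 43.3% (39.1 to 47.5) and 55.5% (49.0 to 61.8). These shares need care, since the coding sequences of the genes were 99.4% identical over 1923 and 1926 bases, and 58.8% of 50-base windows of the Hspa1a transcript also occurred in Hspa1b. Their 3′ untranslated regions, 810 and 643 bases long, were 47.3% identical, and 0% of the 50-base windows in the last 500 bases were shared. Where along the transcripts the reads fell is not known from counts.

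**Figure D4:**
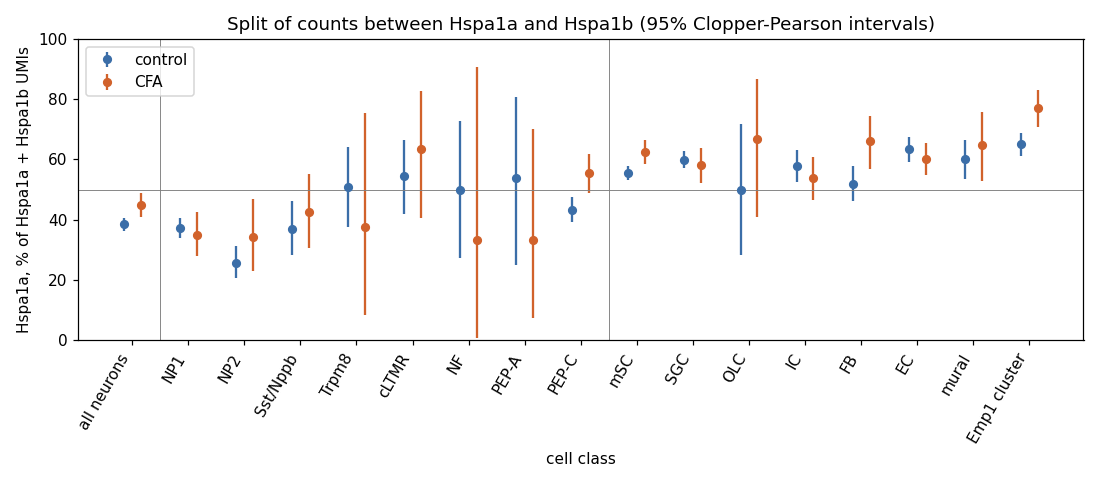
Hspa1a UMIs as a percent of Hspa1a and Hspa1b together (vertical axis) in all neurons, 8 neuron classes and 8 non-neuronal types, in the control (blue) and CFA (orange) libraries, with 95% Clopper-Pearson intervals. NP1, NP2 and all neurons lie under 50%, while mSC, SGC, EC, mural cells and the Emp1 cluster lie over it in both libraries.

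Hspb1 (chr5:135887919-135889563, plus strand), the small heat shock protein Hsp27, which is found in many sensory neurons and protects them after axon injury, varied widely among neuron classes. It was at 258 CPM in control and 246 CPM in CFA neurons, but at 35.9 and 53.9 CPM in NP1 and at 631 and 569 CPM in cLTMR. The highest class in the CFA library, cLTMR, stood 10.6-fold over NP1. In the control library the highest was PEP-A, 21.1-fold over NP1, and this rests largely on 1 cell. NP2 held 285 and 246 CPM, Sst/Nppb 191 and 254 CPM, Trpm8 90.4 and 97.2 CPM, and PEP-C 308 and 243 CPM. Between libraries it was higher in NP1 (0.58, 0.34 to 0.83), where the median cell held 16.7 and 43.3 CPM and thinning to one depth left the ratio of Hspb1 in NP1 at 0.32, and lower in PEP-C (-0.34, -0.42 to -0.26). In NF it was at 677 and 269 CPM (-1.33, -1.71 to -0.97), but 1 cell held 32.0% of the NF UMIs in the control library and 1 cell 38.6% in the CFA library. In PEP-A it was at 757 and 555 CPM (-0.45), with 72.5% of the control UMIs in 1 cell. The median PEP-A neuron went the other way, from 62.2 to 651 CPM, and the ratio of Hspb1 in PEP-A was 0.23 with every cell weighted equally.

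Outside neurons Hspb1 was highest in cells of vessels. EC held 857 and 1096 CPM (0.35, 0.14 to 0.57) and mural cells 646 and 759 CPM. FB held 229.6 and 157 CPM (-0.55, -0.89 to -0.21). In glia it was low and differed most between libraries, with 55.1 and 12.9 CPM in mSC (-2.10, -2.89 to -1.39) on 158 and 18 UMIs and 26.0 and 6.44 CPM in SGC (-2.01, -3.51 to -0.82) on 67 and 6 UMIs. Among cells with at least 2000 UMIs the ratio of Hspb1 in mSC was -0.32, short of the fold.

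The level of neuron markers in other cells differed between the libraries as well. The summed level of 8 neuron markers in mSC was 12.4% of that in neurons in control and 6.94% in CFA cells, in SGC 4.34% and 2.04%, in IC 5.48% and 1.97%, in FB 4.56% and 1.71%, in EC 4.64% and 1.57%, and in mural cells 4.49% and 1.76%. All 8 markers had UMIs in each of these but CFA mural cells, with 4. That percent of the neuronal Hspb1 level would be 31.9 and 17.0 CPM in mSC and 11.2 and 5.00 CPM in SGC, of the same order as the levels measured. In OLC the markers stood at 16.2% and 18.3%, which would carry 41.8 and 45.1 CPM of Hspb1, above the 8.10 and 5.41 CPM measured, so the percent is not a measure of neuronal RNA in every type. For Hspa8 in SGC it would be 56.4 and 21.2 CPM of 568 and 238 CPM, and with these taken off the ratio of Hspa8 in SGC was -1.24. For Hspa1a, 2.49 and 1.13 CPM of 377 and 259 CPM in mSC could be carried in this way. The part of neuronal RNA in the other ratios was not tested beyond this subtraction.

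**Figure D5:**
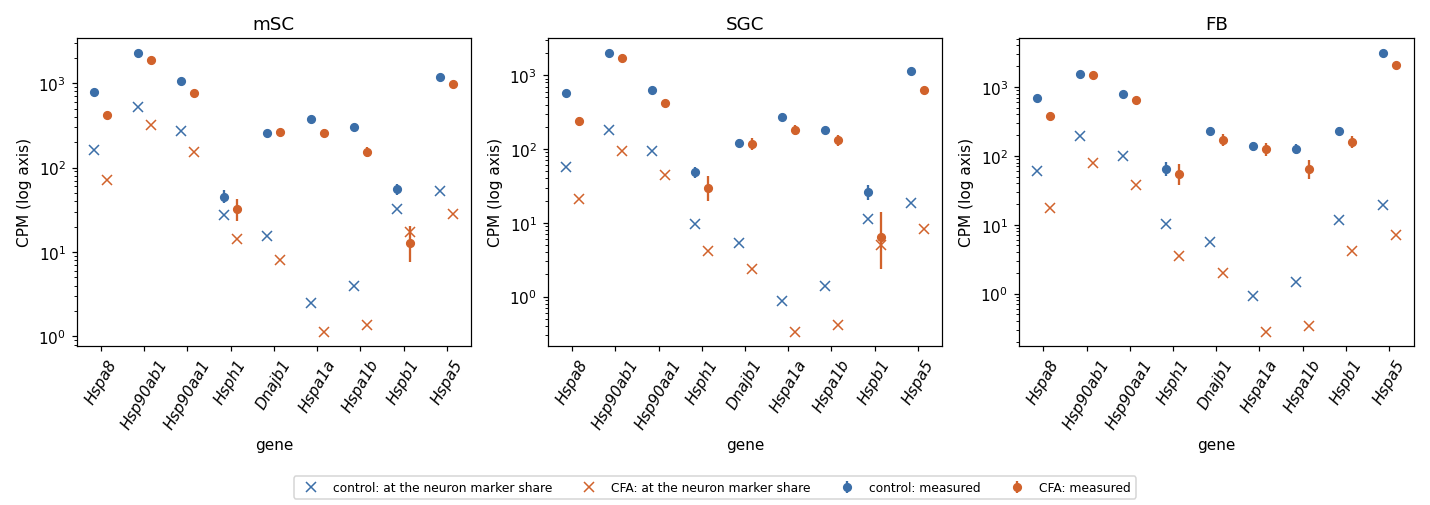
Measured CPM (points, log axis, with 95% Poisson intervals) of the 9 genes in mSC, SGC and FB of the control (blue) and CFA (orange) libraries, and the CPM that the neuron marker share of each type would carry (crosses). For Hspb1 in mSC and SGC the crosses lie near the points, while for Hspa1a and Hspa1b they lie at under 4 CPM and far below them.

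Hspa5 (chr2:34771970-34777547, plus strand), the ER chaperone that also holds the unfolded protein response sensors inactive, was lower in neurons than in every other type, although in the CFA library the intervals of neurons and OLC overlapped. Neurons held 427 and 410.0 CPM, and FB, which secrete collagen, held 3125 and 2058 CPM, 7.32-fold and 5.02-fold more. These are shares of UMIs and not counts per cell. In the control library 821 neurons held 16484 Hspa5 UMIs and 593 FB held 3579. Mural cells, IC and EC lay between 1525 and 1881 CPM in both libraries. Among neurons, NF was highest in the control library at 539 CPM and Sst/Nppb lowest at 260.0 and 263 CPM. The neuronal ratio was -0.06 (-0.10 to -0.02), and in classes it ran from -0.26 in Trpm8 to 0.09 in PEP-A. Outside neurons Hspa5 was lower past the fold in SGC, from 1136 to 639.7 CPM (-0.83, -0.96 to -0.70), in FB (-0.60, -0.69 to -0.51) and in OLC, from 646 to 450.2 CPM (-0.52, -0.75 to -0.30). In the Fabp7-led SGC cluster alone Hspa5 was at 1009 and 638 CPM, and in control cells of the Cxcl10-led cluster at 1604 CPM. In the Dcn-led FB cluster alone Hspa5 was at 3156 and 2208 CPM. Under the alternative settings the ratio of Hspa5 ran from -0.93 to -0.66 in SGC, from -0.63 to -0.38 in FB and from -0.62 to -0.06 in OLC. OLC differed in depth between libraries, with medians of 2268.5 and 4025 UMIs, and the part of depth was not tested beyond these settings, which include thinning. IC, at 1846 and 1815 CPM, and the Emp1 cluster, at 1506 and 1508 CPM, did not pass the fold.

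The other genes of the same pathways were counted in lists. Of 31 cytosolic co-chaperones and HSF1-linked chaperones, 0 passed the fold in neurons, 3 were lower and 1 higher of 30 over the minimum in mSC, and 2 were lower and 1 higher of 28 in SGC. In OLC 4 of 22 were lower and 0 higher, and in IC 7 of 21 were lower and 2 higher. In FB 2 of 23 were lower and 2 higher, in EC 2 of 18 and 3, and in the Emp1 cluster 2 of 23 and 2. Of 6 small heat shock proteins 3 were over the minimum in neurons and 1 was lower, Cryab, the αB-crystallin gene, from 7.12 to 2.97 CPM (-1.26, -1.72 to -0.82). These are low levels. In neurons the summed mSC markers stood at 1.22% and 1.13% of their mSC level. The 6 genes summed to 2833 and 2542 CPM in mSC. The part of glial RNA in the neuronal Cryab level was not tested. Cryab was not lower in neurons alone. It went from 137 to 38.4 CPM in IC (-1.84, -2.69 to -1.08) and from 138 to 56.2 CPM in EC (-1.30, -2.18 to -0.50). In mural cells it was at 333 and 316 CPM (-0.07), on 34 and 10 UMIs. Of 18 ER chaperones and unfolded protein response genes 1 was lower in neurons, the disulfide isomerase Pdia3, from 303 to 210.1 CPM (-0.53). In SGC 10 of 18 and in FB 9 of 18 of the ER list were lower and 0 higher, as Hspa5 was, while in mSC 2 of 17 were lower. In OLC 4 of 15 of the ER list were lower and 1 higher, and in IC 4 of 18 were lower and 0 higher. In EC 1 of 11 was lower and 0 higher, and in the Emp1 cluster 3 of 14 were lower and 2 higher. The SGC and FB counts included the Cxcl10-led and Mgp-led clusters and were not repeated without them. These counts stand beside the same background shares as above. Among the 63 list genes with at least 200 UMIs in neurons, the lowest ratios after Cryab and Pdia3 were those of the ER co-chaperone Dnajb9 (-0.44), the Hsp70 exchange factor Bag2 (-0.39) and the transcription factor Xbp1 (-0.36). The highest were Btg2 (0.52), Egr1 (0.46), Fosb (0.37), the Hsp40 Dnaja2 (0.29) and Ier2 (0.24).

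Immediate early genes, which like the inducible chaperones can be switched on while tissue is dissociated, were counted beside them. In neurons 1 of 12 was higher past the fold, Btg2, near the background of 6.23%. In SGC 0 were higher and 1 was lower (background 9.88% and 11.1%), and in FB 0 were higher and 1 was lower (13.2% and 12.7%). In the Emp1 cluster 10 of 12 were higher (background 15.6%), with the summed level going from 24875 to 44713 CPM. In OLC and mural cells 7 of 12 were higher (background 14.4% and 16.6%), in mSC 5 (11.5%), in IC 3 (14.8%) and in EC 1 (14.2%). Lower were 1 each in the Emp1 cluster (17.8%), OLC (8.89%), mural cells (22.2%) and IC (20.3%), 2 in EC (12.8%) and 0 in mSC (11.1%). Of the chaperones past the fold, Hspa1a and Dnajb1 were higher and Hspa8 lower in the Emp1 cluster. Hspa8, Hspa1a, Hspa1b and Hspb1 were lower in mSC. The part of dissociation in any of these differences was not tested.

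Likeness between genes was described by Pearson's r of log2(CPM + 10) over the 16 classes, which share libraries and differ in depth. Over 9746 genes, the gene most like Hspa1a in the control library was Hspa1b (r = 0.97, and 0.97 in the CFA library), followed by Junb (0.97 and 0.96), an immediate early gene, and Nes (0.95 and 0.88). Hspa8 was most like Esyt1 (0.97 and 0.85), Hsp90ab1 like Ywhab (0.97 and 0.98) and Gnb1 (0.97 and 0.95), Hsp90aa1 like Elavl2 (0.98 and 0.87) and Hsph1 like Lrfn1 (0.98 and 0.79). Hspa5 was most like Mylip (0.97 and 0.96) and Dnajb1 like Zfp280d (0.94 and 0.85). Within the set, the neuron-high genes Hsp90aa1 and Hsph1 went together (0.95 and 0.91), and Hspa5 went against Hsp90ab1 (-0.88 and -0.82). From cell to cell inside PEP-C and NP1, at 5000 UMIs per cell, Spearman's rho between Hspa1a and Hspa1b lay between -0.08 and 0.10, and in counts this sparse it was read no further.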

How the data were processed

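The 2 libraries of whole-transcriptome scRNA-seq (BD Rhapsody) were 1 control and 1 CFA, each from the TG of male mice. The authors deposited raw UMI counts per gene and cell, and the submitters' processing notes name GRCm38 and fastp. The annotation behind the counts is not given in the sources used here, and gene positions are those of GENCODE M21 on GRCm38. Cells with fewer than 150 genes or over 25% mitochondrial counts were left out. The rest were clustered in Seurat 5.3.0 (R 4.3.3) on 2000 variable genes, 20 principal components and resolution 0.8 (23 clusters, seed 1), with 76 genes (the members, their lists and immediate early genes) left out. A cluster was named from fixed markers, and 3 clusters stayed unnamed, of which only the Emp1 cluster was large enough to describe, beside erythroid cells that were left aside.

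Neuron classes were gated on cells with at least 5000 UMIs by raw marker UMIs, with minima between 3 and 5 UMIs and between 0.5 and 20 per 10000 UMIs. Within 1.5-fold of a minimum lay between 1 and 81 of the 790 control and 406 CFA neurons gated. In all, 31 control and 22 CFA neurons had fewer UMIs, and 23 and 17 met no gate. Counts were summed per class and library with Python 3.11.15, numpy 2.4.6, scipy 1.17.1 and pandas 2.3.3. Ratios carry conditional exact binomial intervals, levels exact Poisson and shares Clopper-Pearson intervals, all at 95%. UMIs remove most PCR copies, and the intervals cover counting error only. Cells thinned to one depth held 5000 UMIs (neurons) or 500 (others), and cells with fewer UMIs were left out. Doublets were scored with Scrublet in scanpy 1.11.5. Scripts were tested on simulated counts.

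Members, gene lists and the fold of 0.5 were chosen with earlier results of these data known. All 9 members are named in every class. List genes are named as the 5 lowest and 5 highest ratios in neurons with at least 200 UMIs, and likeness covers genes with at least 500 UMIs. The alternatives tried were stricter cell filters, doublets left out, other totals and centring, equal cell weights, thinning, cells of at least 2000 UMIs, coarser clusters, doubled gate minima and equal class weights. Leaving out the Cxcl10-led and Mgp-led clusters, subtracting neuronal RNA and leaving out the 3 neurons with the most UMIs were added after seeing the data. Some likeness and cluster results are not reported here.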

Additional observations from a re-analysis of the deposited data

Results flagged for a closer look

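For 3 genes the libraries differed in opposite directions in different classes by more than the fold, each with an interval wholly on 1 side of 0. In all cases the difference between classes was not tested. For Hspa1a the log2 ratio of CFA over control was 0.52 in the Emp1 cluster, against -0.81 in NP1, -0.54 in mSC and -0.56 in SGC. For Dnajb1 it was 0.73 in OLC and 0.56 in the Emp1 cluster, against -0.91 in NF and -0.63 in PEP-A. For Hspb1 it was 0.58 in NP1, against -1.33 in NF, -2.10 in mSC, -2.01 in SGC and -0.55 in FB. Some of these depended on the setting. Dnajb1 reached 1.23 in PEP-A and 0.10 in the Emp1 cluster, and Hspb1 in mSC reached -0.32.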

How the results depend on the processing

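The 138 ratios with enough counts kept their sign in 111 of 137 when cells were thinned to one depth and in 136 when likely doublets (122 control and 25 CFA cells with a Scrublet score above 0.25) were left out. Of the 30 ratios past the fold, 20 stayed past it with thinning, 26 of 29 among cells with at least 2000 UMIs, 6 of 9 with doubled gate minima and between 27 and 30 under the other settings that covered all 30. Pairs of gene and non-neuronal type higher past the fold in the CFA library numbered 3, and 7 with thinned cells and 7 among cells with at least 2000 UMIs. The genes lower past the fold in neurons numbered 1, and 2 with gated classes weighted equally, where Hspa1a joined Hspa1b. The share of all genes past the fold was not recomputed under these settings, so changes in these counts were read no further. Hspa1a in Sst/Nppb turned from -0.63 to 0.12 with thinned cells, and Dnajb1 in PEP-A from -0.63 to 1.23 with doubled gate minima. The cause was not tested. Before thinning, Hspa1a in Sst/Nppb had 44 and 29 UMIs, in cells with medians of 45398 and 48017.5 UMIs. Thinning to 5000 UMIs per neuron leaves far fewer. All thinned ratios rest on fewer UMIs than the main ones. Hspa8 in SGC stayed between -1.36 and -1.17, Hspa8 in neurons between -0.35 and -0.24 and Hspa1b in neurons between -0.82 and -0.67. Hspb1 in mSC ranged from -2.80 to -0.32 and Hspb1 in PEP-A from -0.49 to 2.58, which includes leaving out the 3 neurons with the most UMIs. No paired analysis was possible because each condition had 1 library. Precision is limited by cells outside neurons of low depth and by classes of 10 to 24 neurons.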
